A study of Mus musculus with 8 samples.

Results

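Phosphorylated CREB1 (phospho-CREB1) was mapped by chromatin immunoprecipitation and paired-end sequencing at the core genes of autophagy, the process by which a cell encloses its own proteins and organelles in a double membrane and delivers them to the lysosome. The members were 36 genes chosen by their known role, of 21887 protein-coding genes on 21 chromosomes of the mouse genome build GRCm38 (mm10). A member counted as occupied in a library when a peak of that library had its summit within 1000 bp of either end of the gene's span, which is called a gene-end peak here. The tissue was skeletal muscle of male Balb/c mice. C26 mice carried tumors grown from C26 cells, a mouse colon adenocarcinoma line used as a model of cancer cachexia, which had been placed under the skin of the flank at 2 months of age. CTRL mice were the controls, and an age of 2 months is recorded for the samples of both groups. The treatment label also describes rolipram, a phosphodiesterase 4 inhibitor, or vehicle given to tumor-bearing mice, without stating which of them the ChIP mice received. The sample labels call the muscle gastrocnemius and the extraction label calls it quadriceps, and that label leaves it open whether an antibody to CREB or to its phosphorylated form was used. Each group had 2 phospho-CREB1 libraries with 1 list of peaks each, called against an input of the same group, and nothing in the labels says whether the libraries came from separate animals.

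CREB1 binds the cAMP response element, and its phosphorylation after a rise in cAMP recruits coactivators of transcription. In fasted mouse liver, CREB is known to activate autophagy genes. Autophagy starts with the ULK1 kinase complex and a lipid kinase complex around Beclin 1, after which ATG9 vesicles, ATG2 lipid transfer proteins and WIPI proteins enlarge the membrane. A pair of ubiquitin-like conjugation reactions then attach proteins of the ATG8 family to the membrane, where they hold cargo receptors. In skeletal muscle, autophagy clears damaged mitochondria and protein aggregates, and it is one route of protein loss in wasting.

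Most of the autophagy core genes carried a phospho-CREB1 peak, with fewer of them in C26 muscle. A gene-end peak was present at 29 members in C26 replicate 1 and at 17 in the second C26 library, against 32 in CTRL replicate 1 and 33 in CTRL replicate 2. Of all 21887 protein-coding genes, 26.1% and 14.0% had such a peak in C26 replicates 1 and 2, against 33.9% and 40.1% in CTRL replicates 1 and 2. The mean was 23.0 ± 8.49 members in C26 and 32.5 ± 0.707 in CTRL libraries (SD, n = 2 per group), a difference of -9.50. The groups did not overlap, but the C26 libraries lay 12 members apart, which is more than the difference between the group means. C26 replicate 1 was 3 members below CTRL replicate 1, so most of the difference came from C26 replicate 2. In whole muscle, fewer cells of a type and less binding per cell cannot be told apart. With 2 libraries against 2, an exact permutation test over libraries cannot give a two-sided p below 0.333.

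**Figure D1:**
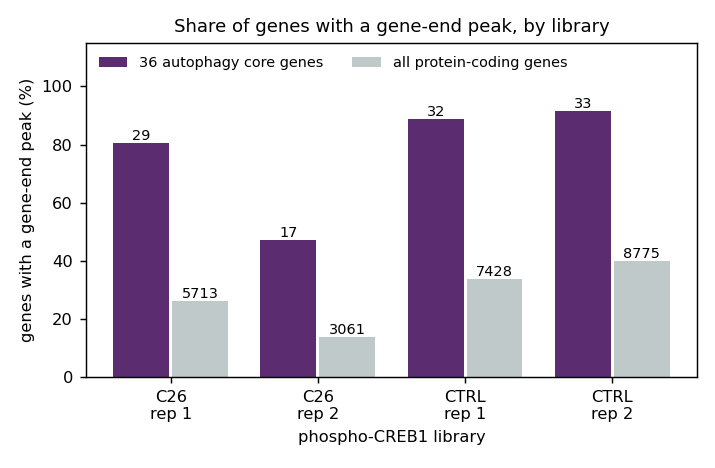
Occupied genes as a share of each set (y axis, %) in each phospho-CREB1 library (x axis), for the 36 autophagy core genes (dark bars) and all protein-coding genes (light bars), with the number of genes above each bar. C26 replicate 2 had the lowest share in both sets, 47.2% of the members and 14.0% of all genes.

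The lists themselves differed in length in the same direction. They held 7482 and 4051 peaks in C26 replicates 1 and 2, against 10835 and 14975 in CTRL replicates 1 and 2, and the number of reads behind them is unknown. The share of members with a peak, divided by the share of all genes with one, was 3.09 and 3.38 in C26 replicates 1 and 2, against 2.62 and 2.29 in CTRL replicates 1 and 2. This ratio cannot exceed 1 divided by the share of all genes, a ceiling that is lower in a longer list. Both C26 values lay above the ceilings of the CTRL lists, where 88.9% and 91.7% of the members were already occupied. The higher ratio in C26 therefore cannot show that the members were favored there. When every list was trimmed to its 4051 strongest peaks, this ratio was lower by 0.186 in C26. With trimmed lists, the mean number of members with a peak differed by -4. List length and group cannot be told apart in these differences.

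Of the 36 members, 32 were occupied in both CTRL libraries, against 32.2% of all genes. A peak in both C26 libraries was present at 17 members (13.0% of all genes), and each of these 17 also had a peak in both CTRL libraries (all 4 libraries, 12.7% of all genes). Of the 32, 29 were occupied in C26 replicate 1 and 17 in C26 replicate 2, beside 74.9% and 41.7% of all genes occupied in both CTRL libraries, and the 17 in all 4 libraries were 53.1%, beside 39.6%. A further 12 members had a peak in both CTRL libraries and in C26 replicate 1 alone, 37.5% of the 32 against 35.3% of the genes occupied in both CTRL libraries, and no member was present in C26 replicate 2 alone among the C26 libraries (2.10% of such genes). The peaks of Ulk1, Atg14 and Atg4d appeared in both CTRL lists and in no C26 list, 3 of 36 members against 7.40% of all genes, or 3 of the 32 (9.38%) against 23.0%. No member showed the reverse pattern, which 0.0274% of all genes did. Without C26 replicate 2, 29 members in place of 17 counted as occupied in all remaining libraries, and without C26 replicate 1, 15 in place of 3 counted as missing from C26. Atg3 was occupied in CTRL replicate 2 alone, and Pik3c3, Atg4a and Atg4c had no gene-end peak in any library.

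**Figure D2:**
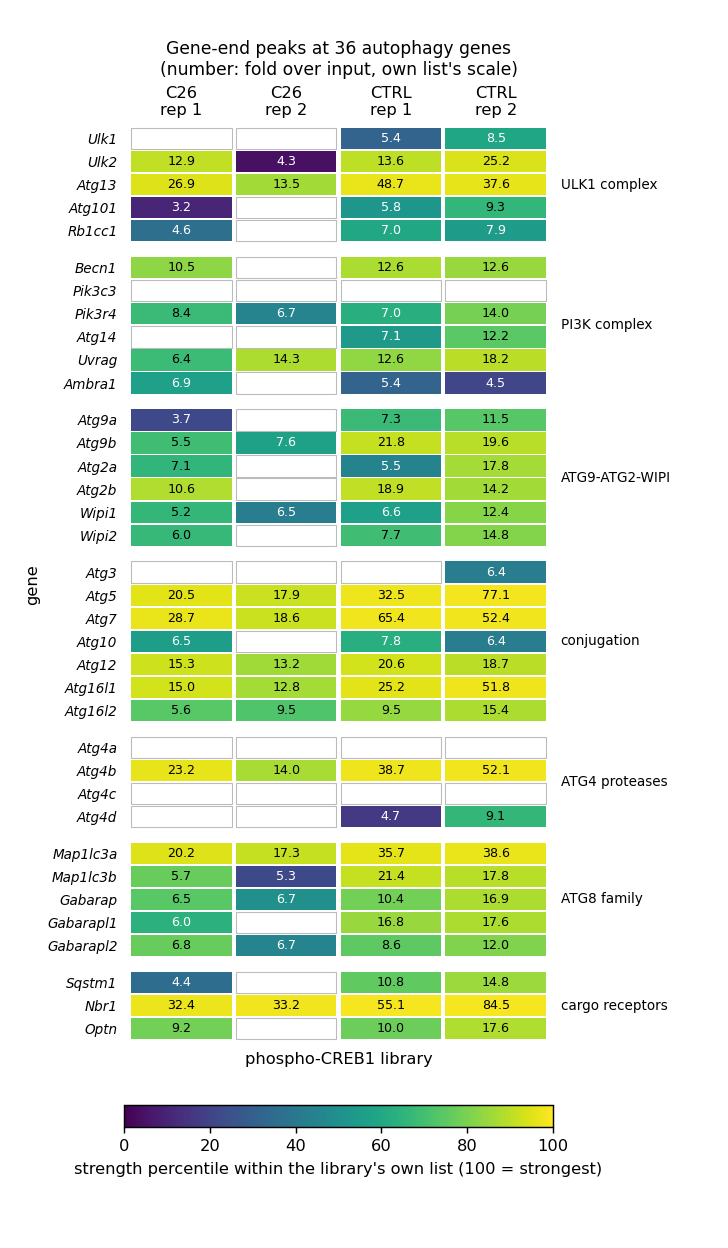
Strongest gene-end peak of each autophagy gene (rows, grouped by role) in each phospho-CREB1 library (columns). The color gives the strength percentile within that library's own list, the number gives the fold enrichment over input on the scale of that list, and empty boxes had no gene-end peak. Nbr1, Atg5, Atg7, Atg16l1, Map1lc3a, Atg13, Atg4b and Atg12 were strong in all 4 columns, and the empty boxes lie mostly in the column of C26 replicate 2.

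The DNA at the starts of these genes was examined in promoter windows that RefSeq gives for GRCm38.p6. The windows run from 250 bp before to 50 bp after a transcription start, and not every window lies under a peak. Windows were found for 30 of the 36 members (33 windows), all but Atg12, Atg16l1, Becn1, Map1lc3a, Pik3c3 and Rb1cc1. The full cAMP response element, TGACGTCA, and its short form TGACG were searched on both strands, and each full element holds the short form on either strand. The windows below belong to the members of highest mean percentile among those with a window and a peak in all 4 libraries, the genes with a full element first, and are printed to show where the motif lies. Motif letters are in capitals.
Atg5 (chr10:44268089-44268388, + strand): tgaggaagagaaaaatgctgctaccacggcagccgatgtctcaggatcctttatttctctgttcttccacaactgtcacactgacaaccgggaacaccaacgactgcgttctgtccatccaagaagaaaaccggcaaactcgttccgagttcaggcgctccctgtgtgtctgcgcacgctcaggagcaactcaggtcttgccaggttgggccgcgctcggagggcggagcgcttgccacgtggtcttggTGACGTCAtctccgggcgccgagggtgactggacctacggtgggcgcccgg
Atg16l2 (chr7:101302039-101302338, - strand): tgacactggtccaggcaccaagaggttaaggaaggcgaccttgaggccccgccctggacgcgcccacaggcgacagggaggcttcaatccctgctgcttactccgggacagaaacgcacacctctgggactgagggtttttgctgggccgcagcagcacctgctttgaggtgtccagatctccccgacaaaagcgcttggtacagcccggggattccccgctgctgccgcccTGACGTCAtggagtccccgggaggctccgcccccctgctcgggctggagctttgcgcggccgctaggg
Nbr1 (chr11:101551857-101552156, + strand): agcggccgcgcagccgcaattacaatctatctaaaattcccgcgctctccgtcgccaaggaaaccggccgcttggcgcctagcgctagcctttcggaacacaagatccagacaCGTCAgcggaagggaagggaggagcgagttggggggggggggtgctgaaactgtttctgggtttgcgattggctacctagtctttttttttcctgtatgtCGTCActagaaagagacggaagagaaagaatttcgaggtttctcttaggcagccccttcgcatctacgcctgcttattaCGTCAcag
Atg4b (chr1:93754655-93754954, + strand): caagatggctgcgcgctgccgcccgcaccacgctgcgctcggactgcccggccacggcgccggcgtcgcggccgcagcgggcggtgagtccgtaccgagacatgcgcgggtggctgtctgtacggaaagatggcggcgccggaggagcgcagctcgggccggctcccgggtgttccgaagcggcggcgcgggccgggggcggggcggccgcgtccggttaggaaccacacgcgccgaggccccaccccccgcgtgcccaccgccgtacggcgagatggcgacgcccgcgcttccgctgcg
Atg13 (chr2:91710543-91710842, - strand): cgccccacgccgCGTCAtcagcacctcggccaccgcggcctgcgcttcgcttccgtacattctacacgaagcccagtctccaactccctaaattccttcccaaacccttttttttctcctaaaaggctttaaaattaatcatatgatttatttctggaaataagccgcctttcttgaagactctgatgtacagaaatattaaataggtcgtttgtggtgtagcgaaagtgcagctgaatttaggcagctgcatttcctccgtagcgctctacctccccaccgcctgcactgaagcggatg
The Atg7 window was not printed, because the summit of the Atg7 peak had a position of -28000 bp relative to that start in CTRL replicate 2.

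The full element stood in 2 of the 33 member windows (6.06%, against 2.23% of 21263 windows of protein-coding genes), those of Atg5 and Atg16l2. The short form stood in 11 of the 33 windows (33.3%, against 23.6% of all windows). Among windows of members with a peak in all 4 libraries, 8 of 15 held the short form (53.3%), as did 53.9% of the windows of all genes with a peak in all 4 libraries. Among windows of members occupied in both CTRL libraries but not in all 4, 2 of 13 held it (15.4%), beside 30.5% of the windows of all such genes. Over all windows of members occupied in both CTRL libraries, 10 of 28 held it (35.7%), beside 39.9% for all genes. These member counts are small, and the differences were not tested. The windows of Atg7 and Atg9b, which lie away from the gene-end peaks of those genes, are among the 15 and the 28. The Gabarap window, among the 15, and the windows of Sqstm1, Atg101 and Optn, among the 13, held no summit of their gene in any library. The shares therefore describe the windows and not all of the DNA under the peaks. Atg4b, with a strong peak in every library, had no motif letters in its window. Its summits lay 74 bp after the start in C26 replicate 1, against 67 and 85 bp in CTRL replicates 1 and 2. These positions are past the end of the window, so much of the peak was not searched.

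Peak summits lay close to the motif where a window held it, but short distances were partly built into the search. Motifs were sought only in a 300 bp window at a start, near which most summits also lay, and the nearest motif was taken. No such distance over all genes stands beside these values. In Atg5, the center of the full element lay 2 bp downstream of the RefSeq start, and the summits were 18 and 16 bp from it in C26 replicates 1 and 2, against 22 and 4 bp in CTRL replicates 1 and 2. In Atg13, whose motif sits near the upstream edge of the window, the summits were 6 and 32 bp from its center in C26 replicates 1 and 2, against 14 and 1 bp in CTRL replicates 1 and 2. Over the members with both a motif and a gene-end peak, the median distance from summit to the nearest motif was 16.0 bp in C26 replicate 1 (10 members) and 27.0 bp in C26 replicate 2 (8 members), against 16.5 bp in CTRL replicate 1 and 10.0 bp in CTRL replicate 2 (10 members each). The summits more than 100 bp from a motif were those of Ulk2 and Atg16l2 in C26 replicate 2, at 207 and 128 bp.

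**Figure D3:**
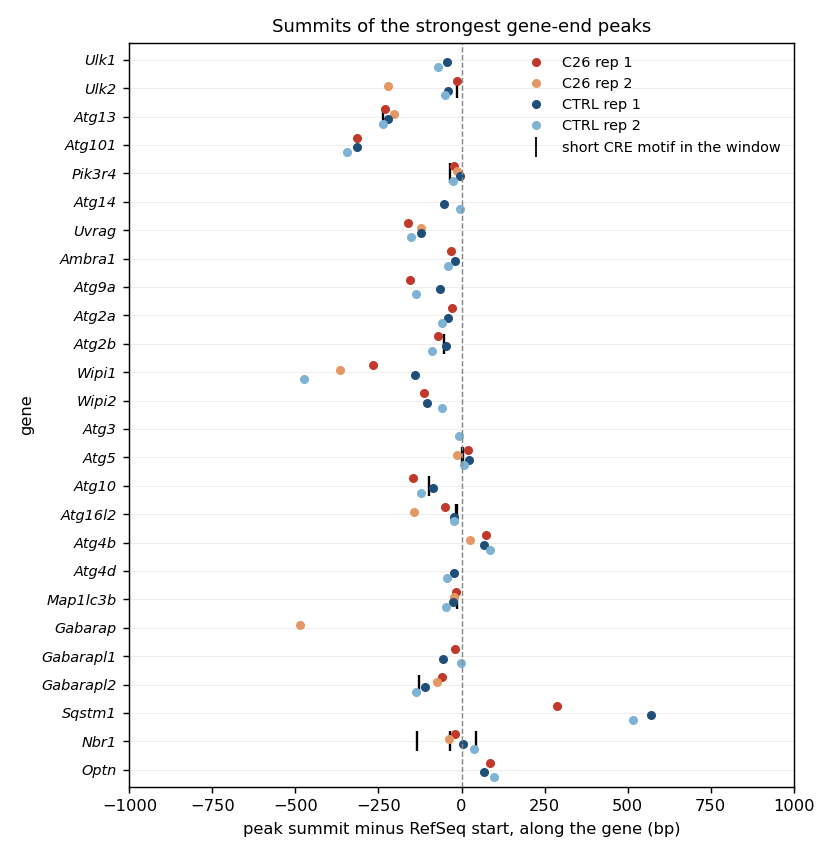
Distance of the summit of the strongest gene-end peak from the nearest RefSeq start, along the direction of the gene (x axis, bp), for 26 autophagy genes with a window (rows). Colored points are the 4 libraries and black ticks the short CRE motif within the 300 bp window. Summits farther than 1000 bp are not drawn (Atg7, Atg9b and, in 3 libraries, Gabarap). Points of 1 gene lie close together, mostly just upstream of the start.

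All 5 genes of the ULK1 complex, which starts autophagosome formation, were occupied in both CTRL libraries. Atg13, the regulatory subunit, was the strongest of them, with 26.9- and 13.5-fold enrichment over input in C26 replicates 1 and 2, against 48.7- and 37.6-fold in CTRL replicates 1 and 2. Enrichments are the authors' values on a scale of their own in each list, so they are ranked within a list by the percentile of −log10 q, where 100 is the strongest peak. Atg13 stood at percentiles 94.7 and 86.0 in C26 replicates 1 and 2, against 96.7 and 96.1 in CTRL replicates 1 and 2. It was high in all 4 lists, and its peak (chromosome 2, 91710355 to 91711187 in CTRL replicate 2) also lay at the end of Harbi1.

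The kinase gene Ulk2 was strong in 3 libraries and weak in the fourth. It had 12.9- and 4.28-fold enrichment in C26 replicates 1 and 2, against 13.6- and 25.2-fold in CTRL replicates 1 and 2, at percentiles 90.6 and 4.01 in C26 and 89.9 and 94.5 in CTRL. The peak of C26 replicate 2 passed only the authors' q threshold of 0.05 and was lost at a q of 0.001. Ulk1, the other kinase of the complex, had 5.41- and 8.45-fold peaks at its start in CTRL replicates 1 and 2 and none in C26. A second Ulk1 peak inside the gene was present in all 4 libraries, with 8.60- and 6.88-fold enrichment in C26 replicates 1 and 2, against 13.5- and 16.9-fold in CTRL replicates 1 and 2. Its summits lay 1674 and 1673 bp from the gene end in C26, against 1641 and 1623 bp in CTRL, just outside the window. Ulk1 was therefore absent from the C26 lists at its start but present in every list further inside the gene. Atg101, a partner of ATG13, had 3.19-fold enrichment in C26 replicate 1, against 5.75- and 9.30-fold in CTRL replicates 1 and 2, and Rb1cc1, which encodes the scaffold FIP200, had 4.58-fold in C26 replicate 1, against 6.95- and 7.92-fold in CTRL replicates 1 and 2.

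Of the 6 genes of the lipid kinase complexes, 5 had a peak in both CTRL libraries and 2 of these, Pik3r4 and Uvrag, in all 4. Uvrag, a subunit of the form of the complex that acts on endosomes, had 6.37- and 14.3-fold enrichment in C26 replicates 1 and 2, against 12.6- and 18.2-fold in CTRL replicates 1 and 2. It and Nbr1 were the members that ranked higher in C26 replicate 2 than in C26 replicate 1, which for Uvrag were percentiles 87.6 and 68.1. Pik3r4, which encodes the regulatory subunit VPS15, had 8.39- and 6.74-fold in C26 replicates 1 and 2, against 7.02- and 14.0-fold in CTRL replicates 1 and 2.

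Becn1 was missing from the list of C26 replicate 2, and Atg14 from both C26 lists. Becn1, which encodes Beclin 1, had 10.5-fold enrichment in C26 replicate 1 and no peak in C26 replicate 2, against 12.6-fold in each CTRL replicate. Atg14, which directs the complex to the forming autophagosome, had no C26 peak, against 7.11- and 12.2-fold in CTRL replicates 1 and 2 at percentiles 54.1 and 74.5 (chromosome 14, 47568241 to 47568767 in CTRL replicate 2). The nearest summits lay 68373 and 263980 bp from Atg14 in C26 replicates 1 and 2, so no C26 peak stood just outside the window. Ambra1, a regulator of Beclin 1, had 6.86-fold in C26 replicate 1, against 5.41- and 4.49-fold in CTRL replicates 1 and 2, at percentile 56.4 in C26 and 32 and 21.1 in CTRL. Pik3c3, which encodes the lipid kinase VPS34, had no gene-end peak, but a peak inside the gene was present in C26 replicate 1 (5.28-fold) and in CTRL replicates 1 and 2 (14.9- and 8.68-fold).

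All 6 genes of membrane supply and lipid transfer had a peak in both CTRL libraries and in C26 replicate 1, and 2 of them, Atg9b and Wipi1, also in C26 replicate 2. Atg2b, a lipid transfer protein gene, had the highest lower CTRL percentile of the members missing from C26 replicate 2. It had 10.6-fold enrichment in C26 replicate 1, against 18.9- and 14.2-fold in CTRL replicates 1 and 2, at percentile 88.1 in C26 and 90.4 and 86.0 in CTRL. Its relative Atg2a had 7.06-fold in C26 replicate 1, against 5.53- and 17.8-fold in CTRL replicates 1 and 2. Wipi1 and Wipi2 encode proteins that bind the lipid made by VPS34. Wipi1 had 5.20- and 6.51-fold in C26 replicates 1 and 2, against 6.59- and 12.4-fold in CTRL replicates 1 and 2, and Wipi2 had 6.02-fold in C26 replicate 1, against 7.75- and 14.8-fold in CTRL replicates 1 and 2. Atg9a, which encodes the main ATG9 scramblase, ranked low in C26 replicate 1 at percentile 21.9 (3.74-fold), against percentiles 67.8 and 73.6 in CTRL replicates 1 and 2 (7.30- and 11.5-fold).

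The Atg9b peak did not lie at a start of that gene. It had 5.46- and 7.57-fold enrichment in C26 replicates 1 and 2, against 21.8- and 19.6-fold in CTRL replicates 1 and 2 (chromosome 5, 24383404 to 24384108 in CTRL replicate 2). Its summits lay 8433 and 8454 bp downstream of the Atg9b start in C26 replicates 1 and 2, against 8467 and 8441 bp in CTRL replicates 1 and 2, at the far end of the gene and near an end of Nos3. The summits were thus in the same place in every library, and the peak cannot be assigned to Atg9b rather than to its neighbor.

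The conjugation genes included several of the strongest peaks of the pathway. Of 7 genes, 6 were occupied in both CTRL lists and 5 in all 4. Atg7, the E1-like enzyme of both conjugation reactions, had 28.7- and 18.6-fold enrichment in C26 replicates 1 and 2, against 65.4- and 52.4-fold in CTRL replicates 1 and 2 (chromosome 6, 114642733 to 114643423 in CTRL replicate 2). Its summits spanned 6 bp over the 4 libraries. Atg5, the acceptor of ATG12, had 20.5- and 17.9-fold in C26 replicates 1 and 2, against 32.5- and 77.1-fold in CTRL replicates 1 and 2 (chromosome 10, 44268036 to 44268722 in CTRL replicate 2). Both genes stood above percentile 90 in every list.

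Atg16l1, which encodes the scaffold of the ATG12-ATG5 conjugate, had 15.0- and 12.8-fold enrichment in C26 replicates 1 and 2, against 25.2- and 51.8-fold in CTRL replicates 1 and 2, and its relative Atg16l2 had 5.57- and 9.54-fold in C26, against 9.53- and 15.4-fold in CTRL. Atg12, the ubiquitin-like protein itself, had 15.3- and 13.2-fold in C26 replicates 1 and 2, against 20.6- and 18.7-fold in CTRL replicates 1 and 2, in a peak shared with the end of Ap3s1. The E2-like enzymes were weaker. Atg10, which acts on ATG12, had 6.49-fold in C26 replicate 1 alone, against 7.77- and 6.36-fold in CTRL replicates 1 and 2. Atg3, which acts on the ATG8 family, had 6.36-fold in CTRL replicate 2 alone, at percentile 42.0. Atg7, Atg5, Atg12, Atg16l1 and Atg16l2 were therefore occupied in all 4 lists, and Atg10 and Atg3 were not.

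The 4 ATG4 proteases, which process ATG8 proteins, ranged from a strong peak in every list to no gene-end peak at all. Atg4b had 23.2- and 14.0-fold enrichment in C26 replicates 1 and 2, against 38.7- and 52.1-fold in CTRL replicates 1 and 2, in a peak that also lay at the end of Thap4. Atg4d had no C26 peak, against 4.69- and 9.13-fold in CTRL replicates 1 and 2, and its CTRL replicate 1 peak was weak (percentile 16.9). Atg4c and Atg4a had no gene-end peak, but had peaks inside the annotated span, close to RefSeq starts that lie further along the gene. Atg4c had 5.40- and 3.88-fold enrichment there in C26 replicates 1 and 2, against 9.44- and 14.7-fold in CTRL replicates 1 and 2, with summits 33 and 6 bp from a RefSeq start in C26 and 1 and 3 bp in CTRL. Atg4a had 3.91-fold in C26 replicate 1, against 4.68- and 6.12-fold in CTRL replicates 1 and 2, with summits 122 bp from a RefSeq start in C26 and 67 and 111 bp in CTRL. When only RefSeq starts were used, for the 30 members that have windows, Atg4c joined the members with a peak in all 4 libraries and Atg4a those with a peak in both CTRL libraries. The Atg4c peak of C26 replicate 2 was among the weakest of its list, at percentile 1.14.

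All 5 genes of the ATG8 family, the membrane-bound proteins that mark autophagosomes, had a peak in both CTRL libraries, and 4 had one in all 4. Map1lc3a, an LC3 gene, had 20.2- and 17.3-fold enrichment in C26 replicates 1 and 2, against 35.7- and 38.6-fold in CTRL replicates 1 and 2 (chromosome 2, 155275999 to 155277183 in CTRL replicate 2). Map1lc3b, the LC3 gene most used as a marker of autophagy, had 5.73- and 5.35-fold in C26 replicates 1 and 2, against 21.4- and 17.8-fold in CTRL replicates 1 and 2. Map1lc3a stood at percentiles 94.8 and 91.3 in C26 replicates 1 and 2, against 95.9 and 96.6 in CTRL replicates 1 and 2, whereas Map1lc3b stood at 76.9 and 21.9 in C26, against 91.1 and 89.1 in CTRL. Map1lc3a ranked above Map1lc3b in each of the 4 lists.

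Among the GABARAP genes, Gabarapl2 had 6.81- and 6.74-fold enrichment in C26 replicates 1 and 2, against 8.63- and 12.0-fold in CTRL replicates 1 and 2. Gabarapl1 had 5.98-fold in C26 replicate 1 and no peak in C26 replicate 2, against 16.8- and 17.6-fold in CTRL replicates 1 and 2. Gabarap had a peak at its start in all 4 libraries, of 7.65- and 6.70-fold in C26 replicates 1 and 2, against 4.17- and 13.5-fold in CTRL replicates 1 and 2. The summits of this peak lay 454 and 485 bp upstream of the start in C26 replicates 1 and 2, against 109 and 236 bp downstream in CTRL replicates 1 and 2. In all but CTRL replicate 2 they were also near an end of Ctdnep1. A second Gabarap peak, stronger by −log10 q, stood beyond its far end, near an end of Phf23, in C26 replicate 1 and both CTRL libraries. Its summits, 662 bp from the gene end in C26 replicate 1, against 604 and 622 bp in CTRL replicates 1 and 2, included the farthest from a gene end of any member summit that counted (662 bp), followed by that of Atg10 in CTRL replicate 1 (653 bp). The Ulk1 summits described above were the nearest within a member that did not count.

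All 3 cargo receptor genes were occupied in both CTRL libraries and in C26 replicate 1. Nbr1, a receptor for ubiquitinated cargo, held the strongest peak of the pathway in 3 of the 4 lists by fold enrichment. It had 32.4- and 33.2-fold in C26 replicates 1 and 2, against 55.1- and 84.5-fold in CTRL replicates 1 and 2, at percentiles 97.1 and 98.0 in C26 and 98.7 in each CTRL list. The Nbr1 peak (chromosome 11, 101551736 to 101553161 in CTRL replicate 2) covers a promoter region shared with a gene on the other side. Sqstm1, which encodes the receptor p62, had 4.39-fold in C26 replicate 1 and none in C26 replicate 2, against 10.8- and 14.8-fold in CTRL replicates 1 and 2, at percentile 35.2 in C26 and 75.5 and 84.9 in CTRL. Optn, a mitophagy receptor, had 9.24-fold in C26 replicate 1, against 10.0- and 17.6-fold in CTRL replicates 1 and 2. Nbr1 was thus high in every library, and Sqstm1 and Optn were present in all but C26 replicate 2.

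Members with C26 peaks tended to have stronger CTRL peaks, and the class with C26 replicate 1 alone overlapped each of the other classes. Taking the lower of the CTRL percentiles, the members with a peak in both C26 libraries ranged from 56.3 (Wipi1) to 98.7 (Nbr1) with a median of 89.8. The 12 members present in C26 replicate 1 alone ranged from 21.1 to 86.0 with a median of 68.6, and the 3 members with no C26 peak stood at 16.9, 32 and 54.1. Atg14, at 54.1, had no C26 peak, whereas Ambra1 (21.1), Atg10 (42.0), Atg2a (44.9) and Atg101 (52.4) had a peak in C26 replicate 1. Of the 20 members above percentile 75, all had a peak in C26 replicate 1 and 15 had one in C26 replicate 2. Over all genes occupied in both CTRL libraries, 98.5% and 65.7% of those between percentiles 75 and 90 had a peak in C26 replicates 1 and 2, and 99.9% and 95.5% of those above 90. Among members, 13 of 13 and 8 of 13 did between 75 and 90, and 7 of 7 in either C26 replicate above 90. Each of these bins held under 20 members. The median lower CTRL percentile of the 32 members was 80.9, against 62.7 for all 7037 genes occupied in both CTRL libraries.

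**Figure D4:**
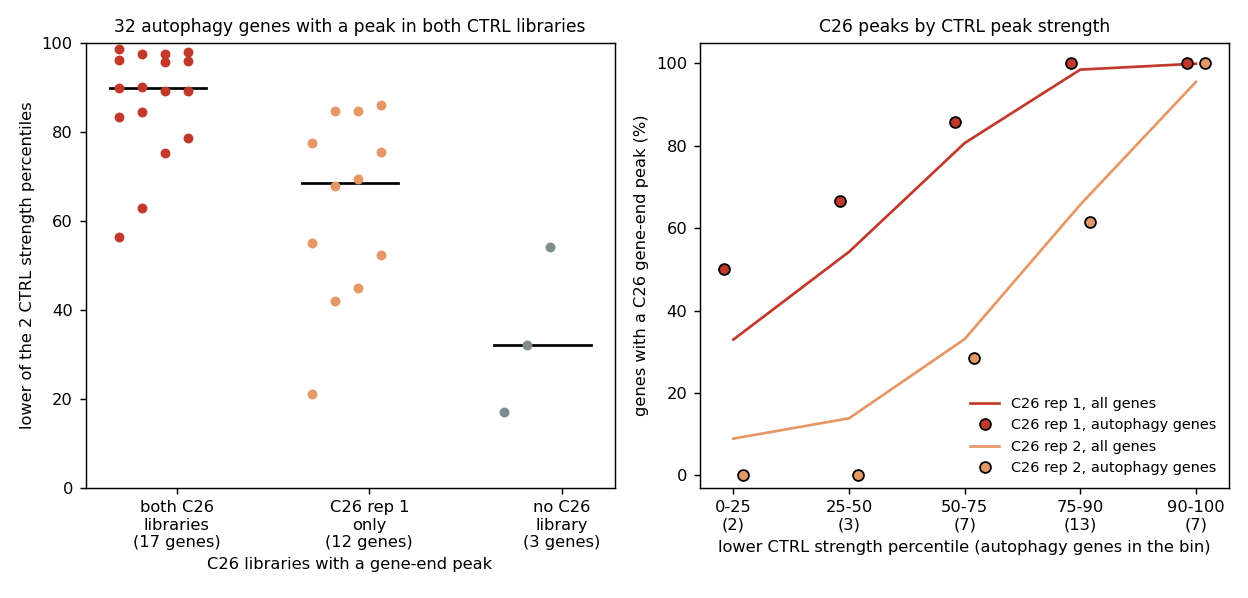
Left, lower of the CTRL strength percentiles (y axis) of the 32 autophagy genes occupied in both CTRL libraries, by the C26 libraries that also had a peak (x axis), with medians as bars. Right, share of genes with a C26 gene-end peak (y axis, %) by bins of the lower CTRL percentile (x axis), with lines for all genes and points for the autophagy genes, whose number per bin is in brackets. The median is highest for genes with a peak in both C26 libraries and lowest for those with none. The range of genes with a peak in C26 replicate 1 alone overlaps those of both other classes, which do not overlap each other. Each bin held 2 to 13 autophagy genes.

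The strength and width of member peaks can be described only for the members that passed the peak threshold. Among these, the median percentile of the strongest gene-end peak was 74.2 and 85.7 in C26 replicates 1 and 2, against 80.9 and 86.5 in CTRL replicates 1 and 2. The same median over all genes with a gene-end peak was 60.5 and 60.9 in C26 replicates 1 and 2, against 63.6 and 69.2 in CTRL replicates 1 and 2. Median widths of member peaks were 513 and 526 bp in C26 replicates 1 and 2, against 715 and 781 bp in CTRL replicates 1 and 2, beside 484 and 456 bp in C26 and 571 and 664 bp in CTRL for all genes. The position of the peaks changed little between libraries. Of the 32 members with peaks in several libraries, 31 had overlapping strongest peaks (all but Gabarap) and 25 had summits within 100 bp of each other, with a median range of 44.5 bp. Of the members with a known strand, the strongest peak stood at the transcription start end in 22 of 24 and 13 of 14 in C26 replicates 1 and 2, against 25 of 27 and 26 of 28 in CTRL replicates 1 and 2. The peak was shared with the end of another protein-coding gene at 8 and 6 members in C26 replicates 1 and 2, against 8 and 9 in CTRL replicates 1 and 2, or 25% to 35.3% of occupied members, beside 29.1% to 36.4% over all genes.

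Genes around the core machinery were taken from 2 lists. Of 29 genes of autophagy machinery beyond the core (vesicle fusion, membrane supply, further receptors), 12 had a peak in all 4 libraries and 21 in both CTRL libraries. These were 41.4% and 72.4% of the list, beside 12.7% and 32.2% of all genes. Of the 21, 57.1% had a peak in all 4 libraries, beside 39.6% of all genes occupied in both CTRL libraries. No gene of this list was occupied in both C26 lists but in no CTRL list, and 5 had the reverse (17.2% of the list, beside 7.40% of all genes). Among genes occupied in both CTRL libraries the share was 23.8% for the list and 23.0% for all genes, so it lay near the background. The 5 were the fusion genes Vamp8 and Ykt6, the adaptor gene Tollip, the stress-induced Trp53inp1 and the ER-phagy receptor gene Retreg1, with 4.28- to 11.2-fold enrichment in CTRL replicate 1. Of 39 upstream regulators, 8 had a peak in all 4 libraries, 27 in both CTRL libraries and none in both C26 libraries alone. The 8 and the 27 were 20.5% and 69.2% of the list, beside 12.7% and 32.2% of all genes. Of the 27, 29.6% had a peak in all 4 libraries, beside 39.6% of all genes occupied in both CTRL libraries.

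The upstream genes with a peak in both CTRL and neither C26 library numbered 8 (20.5% of the list, 29.6% of the 27, beside 23.0% of all such genes). They included the growth kinase Mtor (8.96- and 13.9-fold in CTRL replicates 1 and 2), its partner Rptor (4.84- and 11.4-fold) and its inhibitors Deptor (4.59- and 10.0-fold) and Ddit4 (3.78- and 15.2-fold). The others were the lysosomal anchor gene Lamtor4, the AMPK subunit gene Prkaa2, the acetyltransferase gene Ep300 and Mitf, a relative of the autophagy factor TFEB. Tfeb itself had 7.03-fold enrichment in C26 replicate 1, against 6.11- and 16.2-fold in CTRL replicates 1 and 2. Over both lists, the genes with the strongest peaks throughout were Wdr45b, Rheb, Vcp, Epg5 and Stk11. Wdr45b, a relative of the WIPI genes, had 54.8- and 37.0-fold enrichment in C26 replicates 1 and 2, against 76.5- and 128-fold in CTRL replicates 1 and 2, and Rheb, the activator of mTOR, had 18.8- and 16.6-fold in C26, against 22.7- and 39.2-fold in CTRL.

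Of 10 skeletal muscle marker genes, 7 were occupied in both CTRL libraries, among them Acta1, Ckm, Ttn and Des (32.2% of all genes), and 2 in both C26 libraries (13.0% of all genes). The myosin genes Myh1 and Myh2 had no gene-end peak in any library, and Myh4 had a peak in CTRL replicate 2 alone (5.51-fold). Of the 7, 28.6% were occupied in all 4 libraries and 14.3% in no C26 library, beside 39.6% and 23.0% of all genes occupied in both CTRL libraries. None of 6 endothelial, 6 fibroblast, 6 leukocyte and 4 adipocyte markers was occupied in both CTRL libraries or in any C26 library. Kdr, Flt1, Col1a1 and Fn1 had a gene-end peak in CTRL replicate 2 alone.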

How the data were processed

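The deposited files were 4 peak lists, 1 for each phospho-CREB1 library. The submitters' processing notes name MACS2 2.1.4, SAMtools 1.6, Picard, Bowtie2 2.3.5.1 and FastQC 0.11.2, and mm10 (GRCm38) as the build. Each peak's fold enrichment, a ratio over input, and its −log10 q are the authors' deposited values, scaled within each library, and the labels give a q threshold of 0.05 and 1 input per library. The labels abbreviate a further filter without explaining it. Peaks were called per library, depth is unknown, and where no peak is listed the region missed the threshold in that list.

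Strength is the percentile of −log10 q within a list. Gene spans came from the RefSeq table of GRCm38.p6 and starts, strands and sequences from the RefSeq promoter table of the same build, which had windows for 30 members. Calls were computed with Python 3.11.15, pandas 2.3.3 and NumPy 2.4.6, and were checked on simulated peaks. The members, the lists and the rule for naming genes were chosen with earlier results of these data known. All 36 members are described, and Map1lc3c of the wider list was not matched in the gene table. From the lists, genes in both CTRL and neither C26 library and the 5 with the highest lowest percentile over all 4 libraries are named, and Tfeb, chosen after its values were seen. The planned permutation p-values of counts and medians over the members are not given, because the members were chosen with results known. Alternatives were distances of 500 and 2000 bp, any base of the peak, RefSeq starts only, stricter q, trimmed lists, overlapping peaks, each library left out, the replicate block and, added after seeing the data, summits anywhere in the span. A further list of cell type markers is not reported here.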

Additional observations from a re-analysis of the deposited data

How the results depend on the processing

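Of 104 alternatives over 8 results, 98 kept the direction, or for counts stayed within 1.5 times the value reported. Some of these could not have changed. The replicate block leaves each difference as it was, and leaving out a C26 library cannot alter the count in both CTRL libraries. The difference in occupied members, C26 minus CTRL, was -9.50 and ranged from -15.5 to -3.50 when each library was left out, lowest without C26 replicate 1 and highest without C26 replicate 2. It was -4 with lists trimmed to 4051 peaks. The ratio of member share to all-gene share was higher by 0.779 in C26 and ranged from 0.612 to 0.945 without single libraries, but was -0.186 with trimmed lists. In the untrimmed lists its ceiling was lower in CTRL, so the direction there was largely fixed by list length. The difference in the median strength percentile of member peaks was -3.76, turned to 9.13 with trimmed lists, and ranged from -9.52 to 1.99 without single libraries, positive without C26 replicate 1. The causes were not tested.

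C26 replicate 2 decided the counts of members in both C26 libraries and in all 4 libraries, which were 17 in the full data and 29 without it. Leaving out the libraries in turn gave 17 to 29 for both. The number of members in both CTRL and neither C26 library was 3, and 3 to 15 without single libraries, with 15 without C26 replicate 1. Its members depended on the window: Ulk1 left at 2000 bp, and none of the 3 genes was shared with the 2 found in trimmed lists, Atg9a and Sqstm1. The count of members with a peak in both CTRL libraries ranged from 23 in trimmed lists to 35 with summits anywhere in the span.

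Same-numbered libraries are linked by a number, and whether they were prepared together is unknown. Their log2 enrichments deviated with a correlation of -0.000425 over 2786 genes with a peak in all 4 libraries. This value cannot show whether the libraries were paired. With the replicate block, the difference in occupied members was again -9.50. Exact permutation of the labels within numbers cannot give a p below 0.500.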
